A study of Mus musculus with 6 samples.

Results

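The uroplakins are 5 genes, Upk1a, Upk1b, Upk2, Upk3a and Upk3b, taken by their symbols from a table of 22063 genes measured by bulk RNA sequencing in 6 bladder tumours. All tumours came from female mice with spontaneous bladder cancer and an intact immune system, and all had received an anti-PD-1 antibody once tumours had formed. By the submitters' labels 3 tumours did not respond and 3 responded. Not given in the sources used here are the strain, age, way of inducing tumours and criterion of response, or whether each tumour came from its own animal. The p-values therefore reflect the spread between samples that may share an animal, and no untreated tumour was analysed. All 5 genes had reads in every tumour and passed the expression filter.

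Uroplakins are membrane proteins of the urothelium, the lining of the bladder. Upk1a and Upk1b encode tetraspanins, which carry the other uroplakins out of the endoplasmic reticulum. Upk1a pairs with Upk2, and Upk1b pairs with Upk3a or Upk3b. The pairs pack into the rigid plaques that cover the surface of umbrella cells, the most differentiated cells of this lining, and the genes serve as markers of luminal differentiation in bladder cancer. Upk3b and Upk1b are also made by mesothelium, the layer of flat cells that covers the abdominal organs.

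Total counts were between 15046178 and 23917413 per tumour. On the first principal component of log2 CPM (counts scaled by library size), which held 35.1% of the variance, non-responsive replicates 2 and 3 lay at 55.6 and 64.9 and the responsive tumours between -50.9 and -31.6. Non-responsive replicate 1 stood apart from its group at -1.67, and its closest library was responsive replicate 2 (r = 0.950 across genes, which are not independent replicates). Some results below are therefore also given without it, but not every value that it changes.

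All 5 uroplakins had lower average levels in non-responsive than in responsive tumours, and none passed the edgeR quasi-likelihood test after Benjamini-Hochberg adjustment (adjusted p of 0.350 to 0.419, with 0 of 14505 genes called, 0%). The fold differences ran from 3.64 for Upk3b to 10.7 for Upk3a. All 5 had a log2 fold change below 0, as did 49.0% of all genes tested, and 4 lay at -2 or less, as did 1.81%. The median over the 5 genes was -2.83 against 0.014 over all genes. At an unadjusted p under 0.05 there were 4 uroplakins, all but Upk3b, against 5.79% of all genes in this direction. DESeq2 called 3 of them, Upk3a, Upk2 and Upk1a, where it called 1.58% of genes as lower. The edgeR likelihood ratio test called Upk3a and Upk2, where it called 0.786% of genes as lower. These shares are a description and no test of the family, which was chosen with earlier results of these data known. The 5 genes also had the same highest tumour, so they are not 5 independent results. In bulk tissue, fewer cells of a type and less RNA per cell cannot be told apart.

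Responsive replicate 3 was the highest tumour for each of the 5 genes. Without it the log2 fold changes were -1.48 for Upk1a, -1.35 for Upk1b, -1.69 for Upk2, -2.53 for Upk3a and -1.46 for Upk3b, and DESeq2 called 0 of the 5. The direction stayed the same for every uroplakin whichever single tumour was left out.

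**Figure D1:**
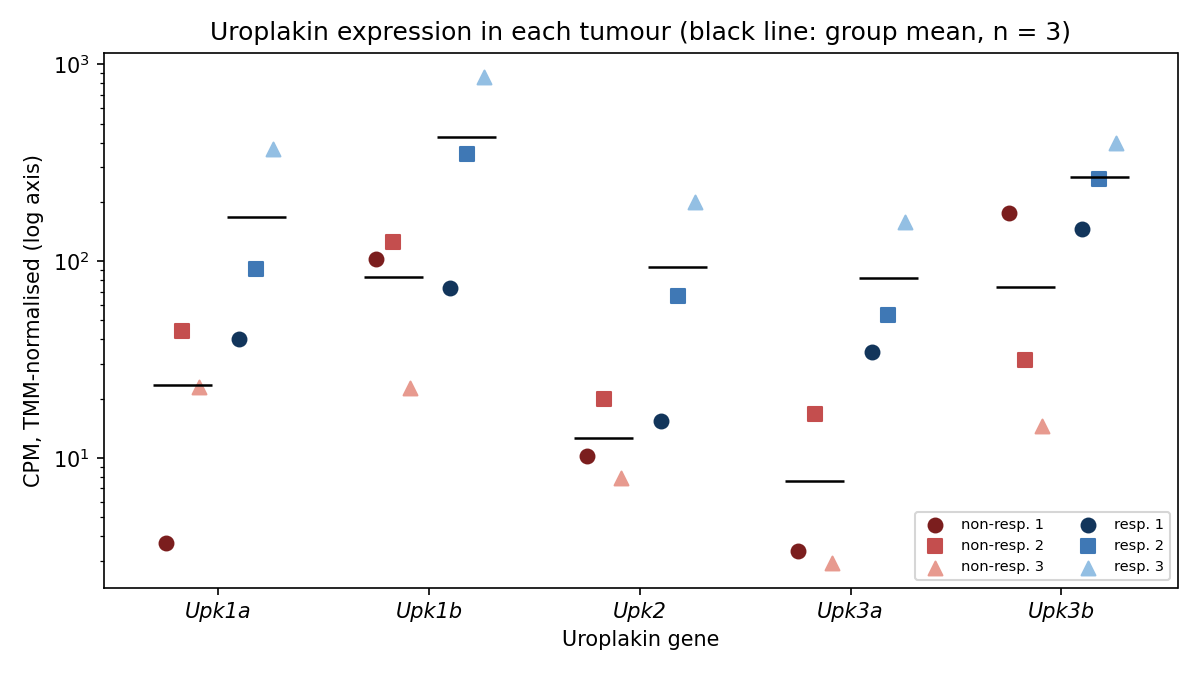
Level of each uroplakin gene in each tumour, as TMM-normalised CPM on a log axis, with red symbols for non-responsive and blue symbols for responsive tumours and a black line at each group mean (n = 3). Upk3a is the gene whose groups are separated, with 16.7 CPM in the highest non-responsive and 34.5 CPM in the lowest responsive tumour, and responsive replicate 3 is highest for every gene.

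Of the tetraspanin uroplakins, Upk1a (mm10 chromosome 7, 30603092 to 30612847, minus strand, 8 exons) measured 3.71, 44.1 and 22.8 CPM in the non-responsive tumours, here and below in the order of replicates 1, 2 and 3. The responsive tumours held 40.1, 91.2 and 372 CPM. The groups overlapped, because non-responsive replicate 2 lay above responsive replicate 1. The log2 fold change of Upk1a was -2.83 ± 1.06 (SE; edgeR adjusted p = 0.372, DESeq2 adjusted p = 0.0453). Among the 6 tumours Upk1a spanned a range of 100.3-fold, the widest of the 5 genes, with its minimum in non-responsive replicate 1.

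Upk1b (chromosome 16, 38773184 to 38800328, minus strand, 8 exons) was at 102, 125 and 22.7 CPM in the non-responsive tumours. In the responsive tumours it was at 72.7, 352 and 860 CPM. Responsive replicate 1 lay below 2 of the non-responsive tumours, and the other responsive tumours lay above all of them. The log2 fold change of Upk1b was -2.37 ± 0.94 (SE; edgeR adjusted p = 0.381, DESeq2 adjusted p = 0.0777). Non-responsive replicate 1, which had the least Upk1a, kept Upk1b at a level within the responsive range.

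Upk2 (chromosome 9, 44452715 to 44454976, minus strand, 5 exons), the partner of Upk1a, was at 10.3, 19.9 and 7.87 CPM in the non-responsive tumours and at 15.5, 66.6 and 199 CPM in the responsive ones. Only responsive replicate 1 lay within the non-responsive range. The log2 fold change was -2.89 ± 0.87 (SE; edgeR adjusted p = 0.359, DESeq2 adjusted p = 0.0124).

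Upk3a (chromosome 15, 85017141 to 85022547, plus strand, 6 exons), a partner of Upk1b, was at 3.38, 16.7 and 2.92 CPM in the non-responsive tumours and at 34.5, 53.1 and 158 CPM in the responsive ones. Upk3a was the one uroplakin without overlap, and its lowest responsive value was 2.07 times its highest non-responsive value. Across all genes, 8.08% were without overlap in this direction. Its log2 fold change of -3.42 ± 0.88 (SE; edgeR adjusted p = 0.350, DESeq2 adjusted p = 0.00159) was the largest of the family. It lay among the lowest 0.310% of genes by log2 fold change, and its unadjusted p of 0.00595 ranked 234 of 14505. Without responsive replicate 3 the DESeq2 adjusted p of Upk3a was 0.0555, above the threshold, and without each other tumour in turn it was between 7.2e-09 and 0.0211.

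Upk3b (chromosome 5, 136038496 to 136046487, plus strand, 6 exons), the other partner of Upk1b, was at 175, 31.4 and 14.6 CPM in the non-responsive tumours and at 145, 262 and 397 CPM in the responsive ones. Non-responsive replicate 1 lay above responsive replicate 1, while the other non-responsive tumours lay well below every responsive tumour. The log2 fold change of Upk3b was -1.86 ± 0.89 (SE; edgeR adjusted p = 0.419, DESeq2 adjusted p = 0.197). Without non-responsive replicate 1 it was -3.55, the largest of the 5 in that fit (edgeR adjusted p = 0.107, DESeq2 adjusted p = 8.5e-09). DESeq2 called 1985 genes without that tumour, 1022 of them as lower, against 444 and 228 with all 6 tumours.

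**Figure D2:**
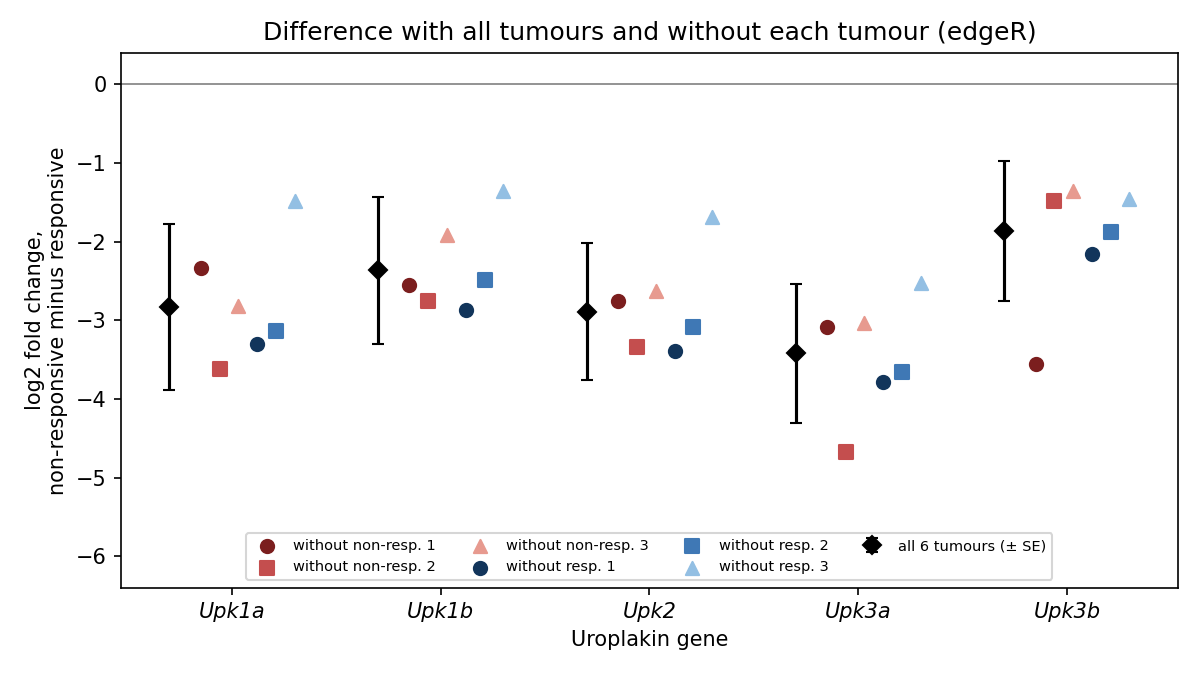
Log2 fold change of each uroplakin gene, non-responsive minus responsive, from edgeR with all 6 tumours (black diamonds, bars are ± SE) and without each tumour in turn (coloured symbols). Every value lies below 0; leaving out responsive replicate 3 brings Upk1a to -1.48, and leaving out non-responsive replicate 1 moves Upk3b to -3.55.

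Upk3a and Upk3b, the alternative partners of Upk1b, differed most in non-responsive replicate 1, so the sequences ahead of their starts are shown. Of the 5 uroplakins, 3 had a RefSeq promoter entry (Upk1a, Upk3a and Upk3b; build GRCm38.p6). The 250 bases before each RefSeq start were searched on both strands for 6 short motifs. For Upk1a the 113 of these bases nearest the RefSeq start lie inside the GENCODE gene. They were the promoter element TATAAA, the core GATAA of the zinc finger family that includes Gata3, the nuclear receptor half-site AGGTCA, the forkhead site TGTTTAC, the Sp and Krueppel-like factor site GGGCGG and the grainyhead-like site AACCGGTT. These motifs do not overlap one another in the sequences below, where capitals mark each match on either strand.
Upk3a, chr15:85016891-85017140, plus strand: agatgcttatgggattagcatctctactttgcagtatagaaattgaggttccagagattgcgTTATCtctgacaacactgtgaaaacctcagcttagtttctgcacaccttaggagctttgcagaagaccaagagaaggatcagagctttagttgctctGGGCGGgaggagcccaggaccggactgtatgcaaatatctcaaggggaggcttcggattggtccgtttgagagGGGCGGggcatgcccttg
Upk3b, chr5:136038246-136038495, plus strand: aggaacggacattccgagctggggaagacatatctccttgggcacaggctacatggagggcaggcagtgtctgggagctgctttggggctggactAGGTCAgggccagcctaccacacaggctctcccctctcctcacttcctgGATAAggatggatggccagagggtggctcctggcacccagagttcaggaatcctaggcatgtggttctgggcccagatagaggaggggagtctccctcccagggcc
The Upk3a window held GGGCGG at 2 places, a motif found in 32.9% of 27025 promoters, and 1 GATAA on the opposite strand, found in 23.0%. The Upk3b window held 1 AGGTCA, found in 13.8% of promoters, and 1 GATAA. Upk1a matched none of the 6 motifs in its window of 250 bases. The motifs without a match in any of the 3 windows were held by 13.0% (TATAAA), 3.09% (the forkhead site) and 0.122% (the grainyhead-like site) of promoters. A match describes the letters only and is not a measured binding site.

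Levels of different genes were compared as FPKM, fragments scaled by transcript length and sequencing depth. In responsive tumours Upk1b was at 225 ± 216 FPKM, Upk1a at 118 ± 129, Upk2 at 86.3 ± 89.8, Upk3b at 74.7 ± 37.7 and Upk3a at 74.3 ± 63.1 (SD, n = 3). In non-responsive tumours the order was Upk1b at 44.97 ± 30.9, Upk3b at 19.4 ± 21.2, Upk1a at 18.3 ± 16.5, Upk2 at 12.3 ± 7.33 and Upk3a at 7.63 ± 8.35 FPKM. No neighbours in either order differed by more than their spread. Summed uroplakin FPKM was 104, 158 and 45.6 in non-responsive tumours against 146.5, 414 and 1174 in responsive ones, so responsive replicate 1 lay between non-responsive replicates 1 and 2.

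The make-up of that sum set non-responsive replicate 1 apart. There Upk1b and Upk3b gave 45.4% and 41.8% of the summed FPKM, while Upk1a and Upk3a gave 2.20% and 2.61%. In the other 5 tumours Upk1a gave 14.8 to 38.2% and Upk3a 6.34 to 20.6%. The ratio of Upk3b to Upk3a FPKM was 16.0 in non-responsive replicate 1 and 0.583 to 1.55 in the other tumours. The ratio of Upk1a to its partner Upk2 was 0.275 there and 1.04 to 2.21 elsewhere.

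Upk1b relative to its partner Upk3a was higher in each non-responsive tumour, at ratios of 17.4, 4.32 and 4.49, than in any responsive tumour, at 1.22, 3.82 and 3.14. The closest values were 4.32 and 3.82. On the log2 scale the group difference was 1.51, and 0.85 without non-responsive replicate 1. The groups overlapped for every other uroplakin ratio computed, and the share of gene pairs without overlap was not computed. Upk1b relative to Upk3b overlapped between the groups, at 1.09, 7.40 and 2.90 against 0.935, 2.503 and 4.03.

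**Figure D3:**
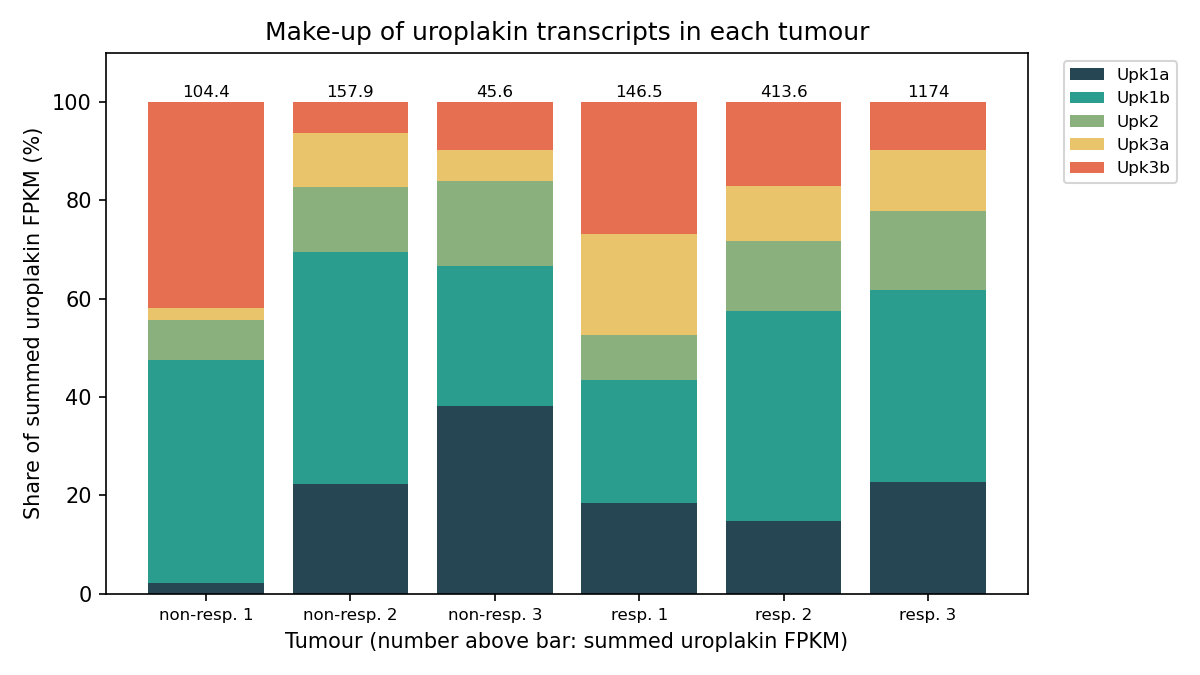
Share of each uroplakin in the summed uroplakin FPKM of each tumour, in percent, with the sum printed above each bar. In non-responsive replicate 1 Upk1b and Upk3b together take most of the bar and Upk1a takes 2.20%, while the sum is largest in responsive replicate 3, at 1174 FPKM.

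General epithelial genes had a smaller median difference than the uroplakins. The 10 pan-epithelial genes had a median log2 fold change of -0.39, with 8 below and 2 above 0, and 0 at an unadjusted p under 0.05. Their median was -0.71 without non-responsive replicate 1 and -0.05 without non-responsive replicate 2. Their summed level was 750 to 1531 CPM in non-responsive tumours against 1266 to 1971 CPM in responsive ones. Epcam, an adhesion molecule of epithelial cells, had a log2 fold change of 0.34 ± 0.35 (SE), and Cdh1, which encodes E-cadherin, of -0.70 ± 0.32. Cldn7, a tight junction protein, and Spint2, a protease inhibitor, had -0.97 ± 0.42 and -0.51 ± 0.35.

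Set against the mean log2 CPM of those 10 genes in the same tumour, the group difference of Upk3a was -3.16 on the log2 scale. It was -2.42 for Upk1a, -2.12 for Upk3b, -1.93 for Upk2 and -1.68 for Upk1b. On this relative scale the groups did not overlap for Upk3a, with -5.19, -1.74 and -5.24 against -1.45, -1.38 and 0.155. They also did not overlap for Upk3b, with 0.458, -0.832 and -2.96 against 0.614, 0.918 and 1.49. The closest Upk3b values were 0.458 and 0.614, and its groups did overlap in CPM. The share of all genes without overlap on this scale was not computed. Non-responsive replicate 2, which had the lowest epithelial mean of the 6 tumours (5.81 log2 CPM), lay within the responsive range of Upk1a, Upk1b and Upk2 on this scale.

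Set instead against Krt8, a keratin of simple and luminal epithelium chosen after its values were seen, the differences were smaller. They were -1.78 for Upk3a, -1.04 for Upk1a, -0.73 for Upk3b, -0.54 for Upk2 and -0.30 for Upk1b, and all 5 groups overlapped. Krt8 and its pairing keratin Krt18 had lower average levels in non-responsive tumours, with log2 fold changes of -2.0 ± 0.73 and -2.26 ± 0.57 (SE; edgeR adjusted p = 0.369 and 0.350). DESeq2 called Krt18 (adjusted p = 0.00449) and not Krt8 (adjusted p = 0.0684), where it called 1.58% of genes as lower. The groups of Krt18 did not overlap, as for 8.08% of all genes in this direction, and those of Krt8 overlapped.

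As a sum, mesothelial markers were lower in non-responsive replicates 2 and 3 than in every other tumour, as Upk3b was. The 9 markers summed to 490, 57.5 and 94.2 CPM in non-responsive tumours against 245, 515 and 459 CPM in responsive ones. The 8 that were tested had a median log2 fold change of -1.05, with 7 below 0, and -2.97 without non-responsive replicate 1. Calb2 was at or near 0 in all tumours. Msln, encoding mesothelin, was at 169, 10.03 and 29.96 CPM against 73.3, 185 and 117 CPM. Non-responsive replicate 1 was thus within the responsive range for Msln and above responsive replicate 1, as it was for Upk3b. Among the markers of smallest p, Cldn15, a claudin, had a log2 fold change of -1.52 ± 0.67 (SE), the mucin Muc16 of -1.76 ± 1.08 and the Wnt enhancer Rspo1 of -1.36 ± 0.91, and 0 of the 8 had an unadjusted p under 0.05. The markers Lrrn4 and Wt1, named after their values were seen, were at 89.0 and 41.2 CPM in non-responsive replicate 1 and at 3.19 and 9.08 CPM in non-responsive replicate 3. Both were highest of the 6 tumours in non-responsive replicate 1, whereas Upk3b was highest in responsive replicate 3. The 1 tested marker above 0 was Bnc1, with a log2 fold change of 0.57 ± 0.44 (SE). Bnc1 was at 47.05, 15.8 and 41.9 CPM in non-responsive tumours against 19.7, 32.7 and 18.4 CPM in responsive ones. The part of mesothelial cells in the level of Upk3b or Upk1b was not tested.

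Genes that move or recycle uroplakin vesicles had a median log2 fold change of -0.65, with 7 of 9 below 0, and the median was -1.39 without non-responsive replicate 1. Snx31, a sorting nexin that binds uroplakins on their way to degradation, was at 8.22, 21.1 and 4.07 CPM in non-responsive tumours against 15.8, 70.0 and 188 CPM in responsive ones. Its log2 fold change of -3.04 ± 0.96 (SE; edgeR adjusted p = 0.364, DESeq2 adjusted p = 0.014) lay within the range of the uroplakins, and its groups overlapped through responsive replicate 1. Sytl2, which links Rab27 to the plasma membrane, had a log2 fold change of -2.42 ± 1.01, and the vesicle fusion protein Vamp8 of -0.65 ± 0.28. Mal, a raft protein of the apical membrane that helps uroplakin vesicles fuse there, was at -0.52 ± 0.64, and at -1.39 without non-responsive replicate 1. Of these 9 genes, 2 had an unadjusted p under 0.05 (Snx31 and Sytl2) and DESeq2 called 1, Snx31. The shares over all genes in this direction were 5.79% and 1.58%.

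Transcription factors of luminal urothelium had a median log2 fold change of -0.66, with 9 of 10 below 0. Pparg, the nuclear receptor that drives luminal differentiation, was at 14.0, 37.7 and 22.6 CPM in non-responsive tumours against 85.0, 82.1 and 141 CPM in responsive ones, without overlap. Its log2 fold change was -2.05 ± 0.41 (SE; edgeR adjusted p = 0.350, DESeq2 adjusted p = 0.000593). It was the one regulator of the 10 that DESeq2 called, and its values without each tumour in turn were -2.46 to -1.76. Of all genes, DESeq2 called 1.58% as lower, and 8.08% were without overlap in this direction. Elf3, an epithelial ETS factor, and Foxa1, a forkhead factor, had -0.90 ± 0.37 and -0.96 ± 0.43.

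Other luminal markers did not share 1 direction. Of 13, 8 were below and 5 above 0, with a median log2 fold change of -0.18, and without non-responsive replicate 1 the median was -1.19. Cldn4, a claudin of tight junctions, was at 304, 135 and 142 CPM in non-responsive tumours against 540, 529 and 566 CPM in responsive ones, without overlap (log2 fold change -1.49 ± 0.36, SE; edgeR adjusted p = 0.350, DESeq2 adjusted p = 0.00802). Of the 13, 2 were lower without overlap and DESeq2 called 2 as lower, against 8.08% and 1.58% of all genes. The groups of 1 marker, Xbp1, named after its values were seen, did not overlap in the other direction. Its log2 fold change was 0.53 ± 0.20 (SE; edgeR adjusted p = 0.373). The share of all genes without overlap in that direction was not computed. Krt20, the keratin of umbrella cells, did not follow the uroplakins. It was at 548, 8.03 and 18.8 CPM in non-responsive tumours against 37.7, 69.0 and 91.7 CPM in responsive ones. Its log2 fold change was 1.54 ± 1.38 (SE; edgeR adjusted p = 0.618) with all tumours and -2.30 without non-responsive replicate 1. That tumour thus had the highest Krt20 and the lowest Upk1a of the 6.

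Basal and squamous genes had a median log2 fold change of 0.51, with 10 of 13 above 0, and -0.29 without non-responsive replicate 1. Krt5, the basal keratin, was at 8266, 1088 and 1917 CPM against 3036, 2432 and 1654 CPM, and its log2 fold change of 0.66 ± 0.74 (SE) became -0.66 without that tumour. Cdh3, which encodes P-cadherin, had a log2 fold change of 1.13 ± 0.31, and Col17a1, a hemidesmosome collagen, of 1.19 ± 0.34 (SE; edgeR adjusted p = 0.350 each). Sprr1b, of the cornified envelope, had -1.29 ± 0.57. The groups of Cdh3 and Col17a1 did not overlap, which was so for 3 of the 13 in this direction. The share over all genes in this direction was not computed.

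**Figure D4:**
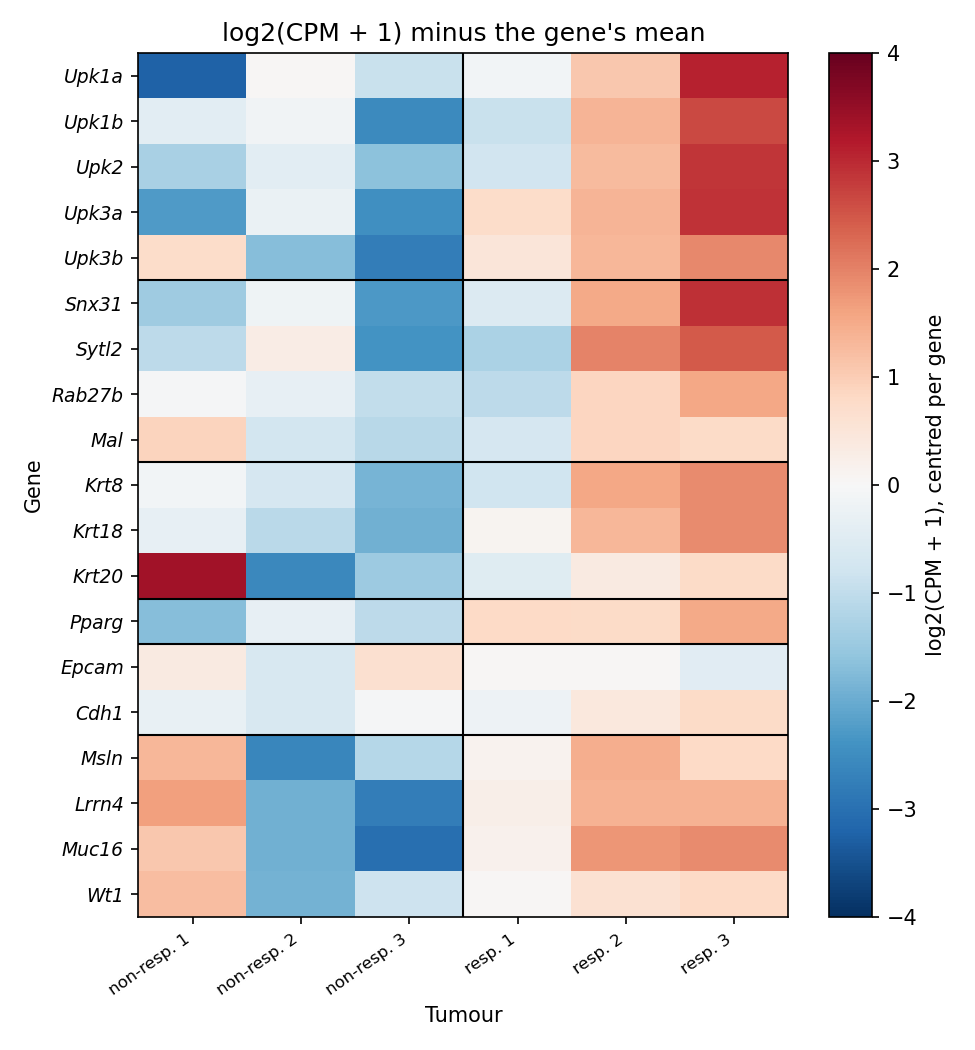
Level of the uroplakins and of genes from the lists on vesicle traffic, luminal keratins, Pparg, general epithelium and mesothelium in each tumour, as log2(CPM + 1) centred on each gene's own mean, in red above and in blue below that mean. In non-responsive replicate 1 (left column) Upk1a, at 3.71 CPM, is low while Krt20, at 548 CPM, and Upk3b and the mesothelial genes are above their means.

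Stromal and immune markers were measured in the same tumours. Smooth muscle genes summed to 1720 to 4154 CPM in non-responsive tumours against 1352 to 7110 CPM in responsive ones, with a median log2 fold change of -0.24. Des, Tagln and Smtn, of the muscle cytoskeleton, had -0.44 ± 0.65, -0.58 ± 0.66 and -0.24 ± 0.30 (SE). Without responsive replicate 3 the smooth muscle median was 0.36. Fibroblast genes summed to 5441 to 6912 against 4433 to 5598 CPM, with a median of 0.51, and 6 of the 8 were above and 2 below 0. Col1a1, Col1a2 and Pdgfrb, encoding collagen I chains and a growth factor receptor, had 1.06 ± 0.26, 1.02 ± 0.26 and 1.45 ± 0.49 (SE). The 2 below 0, named after their values were seen, were the proteoglycan genes Dcn, at -1.08 ± 0.40 without overlap (868 against 1835 CPM on average; edgeR unadjusted p = 0.0303), and Lum, at -0.36 ± 0.42. Of all genes, 8.08% were without overlap in the direction of Dcn. Leukocyte genes summed to 468 to 874 against 201 to 445.5 CPM with no overlap, and a median of 1.23 that was 0.37 without non-responsive replicate 2. The closest sums were 468 and 445.5 CPM, and 2 of the 9 genes were themselves without overlap. The share of all genes without overlap in this direction was not computed. The leukocyte genes Ptprc, Cd8a and Itgam had 1.40 ± 0.53, 1.79 ± 0.68 and 0.88 ± 0.42. None of these markers passed edgeR after adjustment. DESeq2 called Col1a1 and Col1a2 as higher in non-responsive tumours (adjusted p = 0.00187 and 0.00118) and 0 of the smooth muscle and leukocyte genes. Of 14457 genes it called 444 in all, 228 of them as lower. The markers' part in the uroplakin differences was not tested.

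The tetraspanin family to which Upk1a and Upk1b belong had a smaller median difference. Its 27 other members tested had a median log2 fold change of -0.34, with 20 below and 7 above 0, and ranged from -1.54 to 0.92. Upk1a and Upk1b, at -2.83 and -2.37, lay below that range with all 6 tumours. Without responsive replicate 3 they were at -1.48 and -1.35, and the range of the 27 in that fit was not computed. Tspan6, Tspan17 and Cd151 had the smallest p of these 27, with log2 fold changes of -1.32 ± 0.42, -0.81 ± 0.27 and -0.47 ± 0.18 (SE; edgeR adjusted p = 0.364, 0.364 and 0.372). Named for their small p, they were the 3 of the 27 without overlap in this direction, against 8.08% of all genes.

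The genes most like each uroplakin over the 6 tumours were found by the root mean square distance between log2 CPM profiles centred on their means. The search covered 13031 genes. For Upk1b the nearest was Ctse, encoding the protease cathepsin E, at a distance of 0.188, followed by Homer2 at 0.318 and Sowaha at 0.324. For Upk2 the nearest were Sowaha at 0.283, Bcl2l14 at 0.312 and the glutathione transferase Gstm1 at 0.316. For Upk3a they were the alcohol dehydrogenase Adh1 at 0.321, the chemokine gene Cxcl15 at 0.389 and Cntnap2 at 0.567. In non-responsive replicates 1 and 3 Cxcl15 had only 7 and 8 counts and Cntnap2 only 2 and 9. Adh1 was at 10.2, 47.4 and 13.0 CPM in non-responsive tumours against 157, 144 and 416 CPM in responsive ones, a log2 fold change of -3.35 (edgeR adjusted p = 0.350, DESeq2 adjusted p = 0.000141).

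Upk1a was nearest to Cyp4f15, Cntnap2 and Hsd17b14, at 0.384, 0.552 and 0.629, which were all below 15 CPM in every tumour. In non-responsive replicate 1, the lowest tumour for Upk1a, they had only 0, 2 and 2 counts. Upk3b was nearest to Pcdh15 at 0.211, to Nkain4, one of the mesothelial markers, at 0.303 and to Nrxn2 at 0.314. Pcdh15 had only 7 and 2 counts in non-responsive replicates 2 and 3. Among the uroplakins the closest pair was Upk1b and Upk2, at 0.542, and the most distant was Upk1a and Upk3b, at 2.11. Upk1a and its partner Upk2 lay 1.00 apart.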

How the data were processed

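Total RNA from tumour tissue was extracted with TRIZOL and made into libraries with an Illumina TruSeq kit, per the labels' protocols. The estimated counts (expected counts) per gene deposited by the authors carry no normalisation across samples, judging by the file headers and column totals. Between 8.19 and 9.99% of them per tumour were not whole, and they were rounded. The FPKM values deposited by the authors equalled count divided by total count and by a gene length that, for the 5 uroplakins, matched the GENCODE mouse release 21 transcript (1421 bases for Upk1a, 1894 for Upk1b, 1083 for Upk2, 1093 for Upk3a and 3530 for Upk3b). The build was mm10, per the submitters' processing notes. Not given in the sources used here: aligner, counter and strand setting. None of the 5 overlaps another annotated gene.

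All genes were fitted with edgeR 4.0.16 in R 4.3.3 (TMM, default filter leaving 14505 genes, robust quasi-likelihood test, two-sided, Benjamini-Hochberg at 5%), with limma 3.58.1 and DESeq2 1.42.0 as alternatives. The edgeR fit was tested on simulated data. A gene with no reads could still be at up to 3 counts, or 0.124 to 0.199 CPM, by counting error alone. Every pair of libraries differed beyond counting noise (smallest chi-square 75.7 for each degree of freedom). Besides the uroplakins, Krt20, Krt5, Epcam, Msln, Pparg and Mal were always named, with the 3 genes of smallest p in each of 10 lists and the 3 genes nearest to each uroplakin with an average log2 CPM of at least 1; gene-model placeholders were left out. The members and lists were chosen with earlier results of these data known. Alternatives were DESeq2 size factors, upper quartile scaling, DESeq2, limma-voom with quality weights, the likelihood ratio test, no filter, at least 5 CPM in 3 tumours, limma on log2(FPKM + 1) for genes at 1 FPKM or more in 3 tumours, a replicate block, and leaving out each tumour.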

Additional observations from a re-analysis of the deposited data

How the results depend on the processing

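Each uroplakin had a negative log2 fold change in the main fit and in all 9 alternatives with 6 tumours. Genes called numbered 0 in the main fit, 444 by DESeq2 and 212 by the likelihood ratio test, and 0 in the other alternatives. DESeq2 gave log2 fold changes of -2.84 for Upk1a, -2.89 for Upk2 and -3.43 for Upk3a, and the likelihood ratio test -2.89 for Upk2 and -3.42 for Upk3a, all past the threshold. Leaving out each tumour in edgeR gave 0 genes, with -3.62 to -1.48 for Upk1a, -2.87 to -1.35 for Upk1b, -3.39 to -1.69 for Upk2, -4.68 to -2.53 for Upk3a and -3.55 to -1.36 for Upk3b. DESeq2 without each tumour, an alternative chosen after seeing the data, called 163 to 1985 genes, with -4.69 as the lowest and -2.55 as the highest value for Upk3a. It called 4 uroplakins without replicate 1 of either group, 3 without non-responsive replicate 2, 2 without responsive replicate 2, 0 without responsive replicate 3 and 1 (Upk3a) when non-responsive replicate 3 was left out. Genes called as lower in these fits numbered 1022, 252 and 84 without non-responsive replicates 1, 2 and 3. They numbered 248, 150 and 142 without responsive replicates 1, 2 and 3, against 228 with all 6 tumours. In these DESeq2 fits Upk3b was called only when non-responsive replicate 1 was left out (-3.56) and Upk1b only when responsive replicate 1 was (-2.86); Upk1a reached -3.65.

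With the replicate number as a block, 0 genes were called and the uroplakins lay between -3.53 (Upk3a) and -1.90 (Upk1b). Same-numbered tumours did not deviate together (correlations of -0.11, -0.087 and -0.024), so the numbers were not taken as pairs. Of 709 values of the 48 other named genes, 9 changed sign. Krt20 was at -1.28 with limma-voom, -0.34 on FPKM, -1.16 with the block and -2.30 to 2.12 over the tumours left out. Krt5 was at -0.07 with limma-voom and -0.66 to 1.11 over the tumours left out. Without responsive replicate 3 Smtn, Des and Tagln were at 0.06, 0.27 and 0.32, against lowest values of -0.42, -0.90 and -1.01. The uroplakins had 51 or more counts in every tumour, so few reads did not limit them.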

Other observations

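Upk3bl, a gene like Upk3b that is not one of the 5 uroplakins, begins 8004 bases after the end of Upk3b on chromosome 5 (136054492 to 136064326, plus strand). It was at 7.49, 9.85 and 42.0 CPM in the non-responsive and 15.7, 75.1 and 35.4 CPM in the responsive tumours. Its log2 fold change was -1.08 ± 0.79 (SE; edgeR adjusted p = 0.542, DESeq2 adjusted p = 0.491). Without non-responsive replicate 3 it was -2.27 in edgeR (adjusted p = 0.632) and -2.28 in DESeq2, which then called it (adjusted p = 0.0397). That DESeq2 fit called 84 genes as lower. Without each other tumour in turn DESeq2 did not call Upk3bl, with -1.47 to -0.38 (adjusted p of 0.38 to 0.922). These DESeq2 fits were chosen after seeing the data. Non-responsive replicate 3 was the lowest of the 6 for Upk3b and the highest non-responsive tumour for Upk3bl.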
